A study of Mus musculus with 24 samples.

Results

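The 10 genes described here encode the mucus proteins of intestinal goblet cells and the secretory helpers and transcription factors that go with them: Muc2, Fcgbp, Clca1, Zg16, Tff3, Tff1, Agr2, Spink4, Spdef and Creb3l1. They were chosen by name and matched by symbol to 1 Ensembl identifier each, 10 of the 54146 genes in the count tables, and all 10 were tested in both experiments, although Tff1 passed the filter on low counts in the genotype experiment only through the Cdk8-KO and Double-KO libraries, where it was higher. The study asked what CDK8 and CDK19, the paralogous kinases of the Mediator complex, do in the intestinal epithelium, and sequenced RNA from organoids, which are epithelial cultures grown from mouse small intestine. The genotype experiment held 12 libraries, 3 each of WT, Cdk8-KO, Cdk19-KO and Double-KO organoids, all kept for 7 days in 600 nM 4-hydroxytamoxifen. That drug activates a Cre recombinase driven by the Villin promoter, which cuts exon 2 out of a floxed Cdk8 gene in epithelial cells. Cdk19 was mutated beforehand by lentiviral Cas9 with a guide and puromycin selection, and cultures were expanded from picked organoids. The paper's methods name Cdk8-floxed mice with and without this Cre as the source of the organoids. The Cre therefore goes with Cdk8 deletion, and the vector, selection and picking go with the Cdk19 mutation. Their effects cannot be told apart here from those of the kinase genes. The sources used here name more than one double-knockout clone without saying which clone gave which library. The inhibitor experiment held 12 libraries of WT organoids, 3 each with the vehicle DMSO or with Senexin B, an inhibitor of both kinases, for 16 h or 24 h (DMSO-16h, SnxB-16h, DMSO-24h and SnxB-24h). Their labels carry the tamoxifen text as well.

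Goblet cells are secretory cells that fill their upper part with mucin granules and release them to form the mucus over the epithelium. MUC2 is the mucin that polymerises into the intestinal gel. FCGBP, CLCA1 and ZG16 are secreted with it and are found in that gel, and trefoil factors are small peptides that accompany mucins. The disulfide isomerase AGR2 acts in the endoplasmic reticulum on mucin folding, and SPDEF and CREB3L1 are transcription factors of mature goblet cells. In a bulk sample, fewer goblet cells and less RNA per goblet cell cannot be told apart. On the mouse build GRCm38, Muc2 lies at chr7:141690340-141754693, Fcgbp at chr7:28071236-28120862, Zg16 at chr7:127050156-127087328, Clca1 at chr3:145003817-145032776, Tff3 at chr17:31125306-31129646, Tff1 at chr17:31161395-31165277, Spdef at chr17:27714352-27728955, Agr2 at chr12:35992907-36004087, Spink4 at chr4:40920052-40931395 and Creb3l1 at chr2:91982328-92024502. Each count covers all annotated exons of its gene.

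The tables gave 14636861 to 15473180 counted reads per genotype library and 27075937 to 28405118 per inhibitor library. The genotype libraries hold no strand information, whereas the inhibitor libraries do, and the 2 experiments differed in library preparation, so they were normalised separately, no level was compared across them, and no difference between their effects was tested. The sample labels of the genotype experiment also name 4T1, a mammary tumour line, as the cell type. In these libraries the summed normalised count of 6 intestinal epithelial genes (Vil1, Cdx1, Cdx2, Cdh17, Lgals4 and Epcam) was 80418 to 107096. That of 6 mammary genes was 0 to 4.02 in WT, 0 to 1.94 in Cdk19-KO, 7.14 to 28.8 in Cdk8-KO and 5.10 to 27.2 in Double-KO. Of these, the casein gene Csn3 was called higher in Double-KO against WT (log2 fold change 3.76, SE 1.20; edgeR adjusted p = 0.0496) and against Cdk19-KO (4.59, SE 1.33; 0.0249). Cdk8 counts, which cover all exons, were no lower in the libraries labelled Cdk8-KO (685, 857 and 634 normalised counts) than in WT (634, 646 and 534), so they do not check that label. Cdk19 counts were 420 and 422 in Cdk19-KO replicates 2 and 3 and 403 and 355 in Double-KO replicates 1 and 2, against 711 to 749 in WT. The library labelled Cdk19-KO replicate 1 had 729 and the library labelled Double-KO replicate 3 had 773, and the counts of called members that rest on these groups are given below with and without both libraries, whereas those of the other gene lists are given with them.

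On the TPM scale, which divides each count by the exon length of the gene and sets the sum of each library equal, the 10 genes spanned more than 3 orders of magnitude. Across the 12 genotype libraries the median level was 3177 TPM for Tff3, 1221 for Spink4, 414 for Zg16, 398 for Fcgbp, 376 for Agr2, 165 for Clca1, 87.9 for Muc2, 54.2 for Creb3l1, 34.1 for Spdef and 1.45 for Tff1. The ranges of Zg16 (73.4 to 804), Fcgbp (236 to 544) and Agr2 (234 to 618) lay over one another across the 4 groups, a pooled range that includes the differences between groups. Within WT, Zg16 (178, 187 and 395 TPM) was below Fcgbp (350, 364 and 516) in each library and below Agr2 (323, 319 and 314) in 2 of 3, and in each Cdk19-KO library it was below both. Tff3 (1954 to 5390) lay above Spink4 (339 to 1865) without overlap. Counted without regard to strand, these 2 genes overlapped (2192 to 5955 and 595 to 3413), and the median of Spink4 was 1970. In the inhibitor libraries Tff3 (2146) and Spink4 (1442) again had the highest medians, followed by Fcgbp (549), Agr2 (376), Zg16 (203), Clca1 (95.0), Muc2 (64.3), Creb3l1 (24.8), Spdef (19.8) and Tff1 (3.24). The level of Muc2 depends on the exon length used, which is 7127 bases in the annotation. The level of Tff1 depends on the strand column: counted without regard to strand, its median was 0.485 TPM in the genotype libraries and 0 in the inhibitor libraries.

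**Figure D1:**
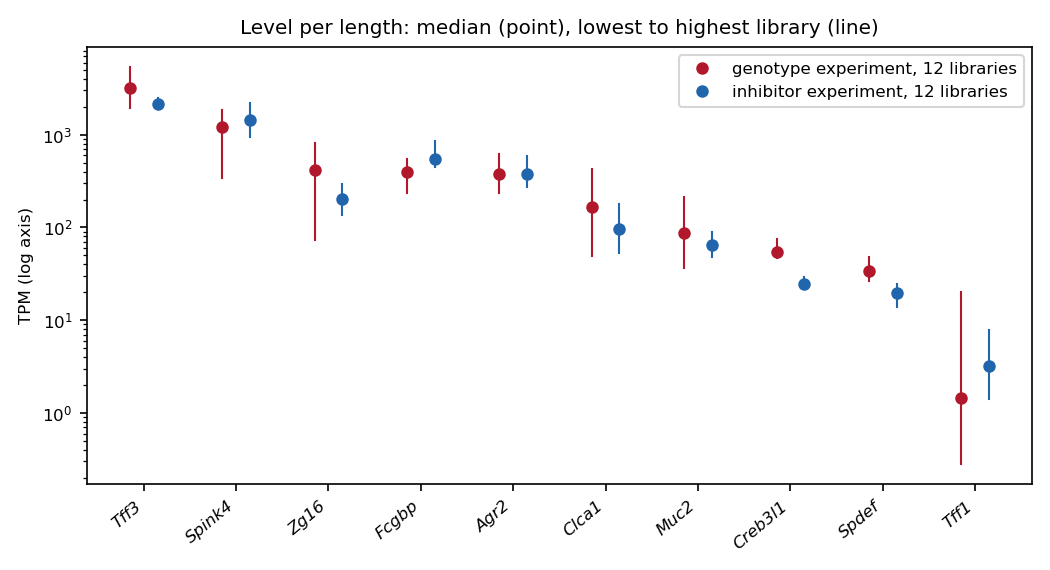
Level of the 10 genes in TPM (log axis) in the genotype and the inhibitor experiment, as the median of 12 libraries (points) and the lowest to the highest library (lines). Tff3 has the highest median in both experiments (3177 and 2146 TPM) and Tff1 the lowest (1.45 and 3.24).

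The RefSeq promoter table for GRCm38.p6 matched 4 of the 10 genes, and these 4 are shown, a gel mucin, a gel protein, a folding enzyme and a transcription factor, each of which was called in at least 1 comparison below. Each is the stretch from 250 to 21 bases before the start that RefSeq gives, which for Agr2 and Spdef is another start than that of the coordinates above, 230 bases long, read 5′ to 3′ on the strand of the gene, and capitals mark CAGCTG (an E-box, the type of site bound by helix-loop-helix factors such as ATOH1), ACGTG and TATAA on either strand.
Muc2, chr7:141690090-141690319, plus strand: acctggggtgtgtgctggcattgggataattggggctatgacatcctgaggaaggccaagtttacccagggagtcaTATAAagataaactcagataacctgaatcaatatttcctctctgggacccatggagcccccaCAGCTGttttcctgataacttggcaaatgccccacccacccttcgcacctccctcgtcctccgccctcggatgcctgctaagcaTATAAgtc
Fcgbp, chr7:28070986-28071215, plus strand: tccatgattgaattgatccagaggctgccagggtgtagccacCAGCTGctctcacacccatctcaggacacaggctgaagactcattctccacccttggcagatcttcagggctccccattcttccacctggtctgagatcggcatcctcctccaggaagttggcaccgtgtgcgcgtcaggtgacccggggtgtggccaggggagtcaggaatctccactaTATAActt
Agr2, chr12:35992675-35992904, plus strand: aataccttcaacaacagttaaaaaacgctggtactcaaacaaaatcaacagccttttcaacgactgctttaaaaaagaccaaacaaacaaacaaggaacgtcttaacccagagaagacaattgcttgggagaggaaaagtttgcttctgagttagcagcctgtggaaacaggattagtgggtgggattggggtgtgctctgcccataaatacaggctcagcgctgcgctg
Spdef, chr17:27728972-27729201, minus strand: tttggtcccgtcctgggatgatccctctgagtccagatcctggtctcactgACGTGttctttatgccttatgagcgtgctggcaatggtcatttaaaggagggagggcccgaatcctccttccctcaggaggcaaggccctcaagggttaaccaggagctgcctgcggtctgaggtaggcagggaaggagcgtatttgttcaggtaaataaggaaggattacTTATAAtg
Muc2 and Fcgbp held TATAA beginning 28 bases before the start, and Spdef held it beginning 27 bases before, overlapping its reverse complement, which begins at 28. TATAA stood in 22.6% of the windows of the same length of 27025 genes. CAGCTG stood in the Muc2 and Fcgbp windows and in 11.6% of all windows, and ACGTG in the Spdef window and in 15.1% of all. The 4 letters GGAT, the core that SPDEF favours among factors of the ETS family, occurred in all 4 windows and in 71.7% of all windows. The Agr2 window held none of the 3 motifs marked in capitals. A match is a description of these letters and not evidence of a site.

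Tff1, which passed the filter only through the groups where it was high, is left out of the counts and medians in this paragraph and described apart. In the Cdk8-KO libraries, the other 9 genes had higher levels than in WT and 4 of them passed the test: Muc2, Agr2, Spdef and Creb3l1 rose. The test was edgeR's quasi-likelihood test with Benjamini-Hochberg adjustment over all 15602 genes, at an adjusted p of 0.05. It called 5.15% of all genes in this comparison and 2.79% higher, and 51.6% of all genes had a change above 0. For 7 of the 9 genes the Cdk8-KO libraries lay above WT without overlap, beside 14.9% of all genes. In the Double-KO libraries all 9 fitted changes were again above 0, and Muc2 and Zg16 rose, beside 17.3% of all genes called, 9.41% called higher and 48.9% with a change above 0. There 6 genes lay above WT without overlap, beside 18.7% of all genes. In the Cdk19-KO libraries 8 of the 9 changes were below 0 and none was called by edgeR, which called 0% of the 15602 genes there, 45.9% of which had a change above 0. In that comparison 3 members passed an unadjusted p of 0.05 (10.8% of all genes), 3 lay below WT without overlap (10.8%), and DESeq2 called 2 (2.01%). The median log2 fold change of the 9 genes was 0.85 in Cdk8-KO, 0.62 in Double-KO and -0.39 in Cdk19-KO, beside medians over all genes of 0.01, -0.01 and -0.02. These 3 comparisons share the WT libraries. Muc2, Agr2 and Tff1 are genes that the study itself discussed for these samples, so their direction is not independent evidence.

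**Figure D2:**
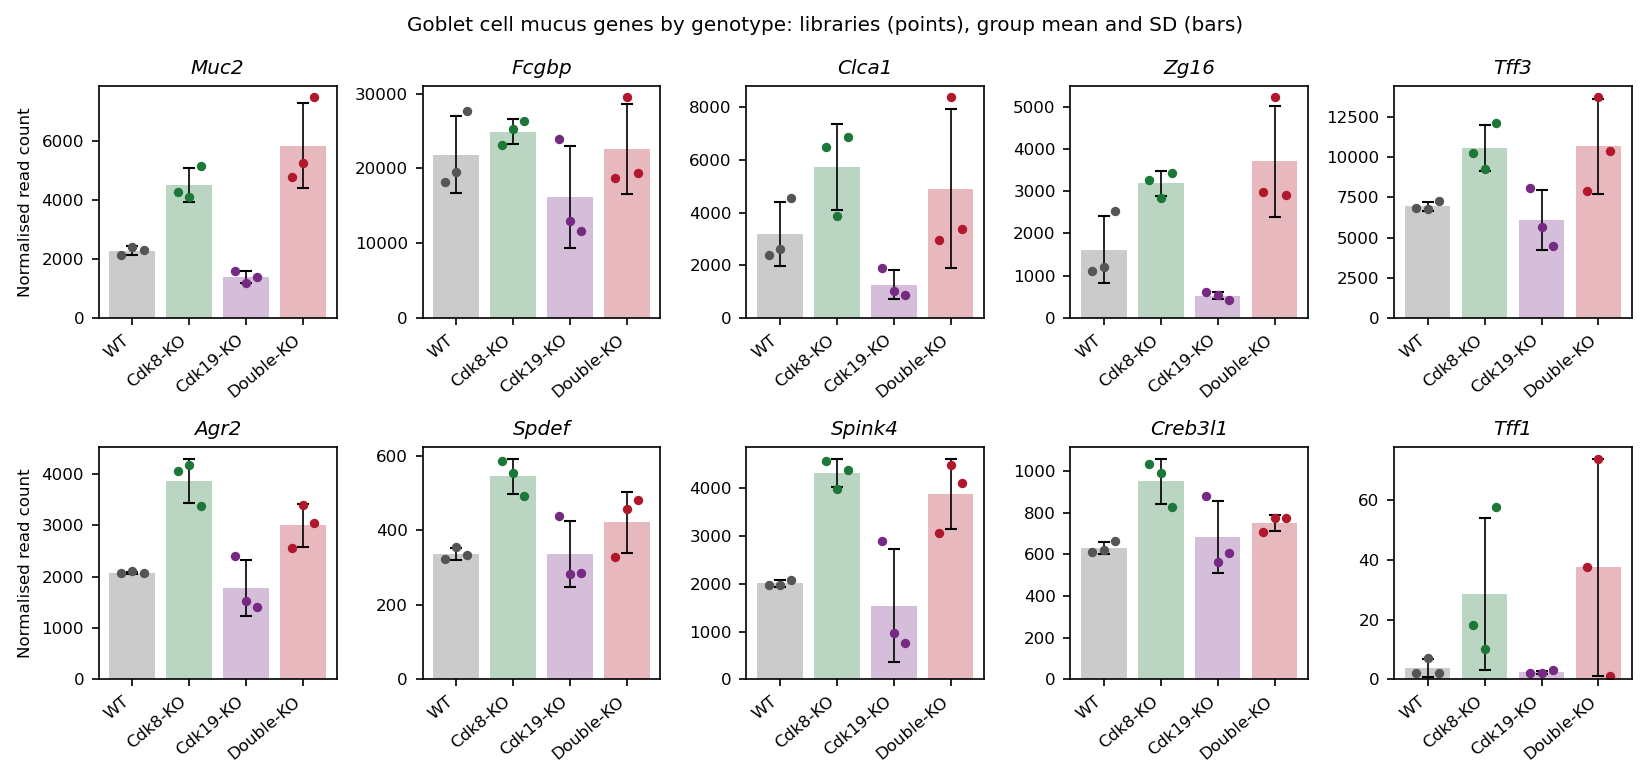
Normalised read counts of the 10 genes in the genotype experiment, one panel a gene; points are the 3 libraries of each group, bars the group mean and error bars the SD. Muc2 is separated into 3 levels, with Cdk19-KO (1186 to 1588) below WT (2132 to 2415) and both Cdk8-deleted groups (4087 and above) over WT, and Tff1 stays near 0 in WT and Cdk19-KO.

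Muc2 had 2132, 2415 and 2285 normalised counts in WT, 4276, 4087 and 5143 in Cdk8-KO, 1588, 1186 and 1384 in Cdk19-KO, and 4789, 5235 and 7485 in Double-KO. The WT libraries overlapped with none of the other groups: both groups with deleted Cdk8 lay above them and Cdk19-KO lay below. Muc2 rose 1.98-fold in Cdk8-KO (log2 fold change 0.98, SE 0.16; edgeR adjusted p = 0.0071) and 2.56-fold in Double-KO (log2 fold change 1.36, SE 0.16; adjusted p = 0.00055). Its log2 fold change was -0.72 (SE 0.16; edgeR adjusted p = 0.152, DESeq2 adjusted p = 0.0055) in Cdk19-KO. The Cdk8-KO and Double-KO calls of Muc2 were kept when any single library of the compared groups was left out (edgeR adjusted p of at most 0.0453 and 0.00519).

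Zg16, which encodes a lectin-like protein of the mucus that binds bacteria, had 1110, 1200 and 2539 normalised counts in WT, 3279, 2848 and 3431 in Cdk8-KO, 608, 536 and 431 in Cdk19-KO, and 2990, 5234 and 2913 in Double-KO. No group overlapped with WT, although WT replicate 3 stood far above the other WT libraries. Zg16 rose 2.30-fold in Double-KO (log2 fold change 1.20, SE 0.30; edgeR adjusted p = 0.0185), a call that was lost without WT replicate 1 (0.0816), WT replicate 2 (0.0751) or Double-KO replicate 2 (0.0714). In Cdk8-KO its log2 fold change was 0.98 (SE 0.30; edgeR adjusted p = 0.0848, DESeq2 adjusted p = 0.0149), and without WT replicate 3 it was 1.46 (edgeR adjusted p = 0.0155). In Cdk19-KO it was -1.62 (SE 0.31; edgeR adjusted p = 0.107, DESeq2 adjusted p = 4.98e-05), the lowest value of the 10 genes in that comparison.

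Clca1, which encodes a metalloprotease of the mucus gel, had 2371, 2611 and 4568 normalised counts in WT, 6484, 3874 and 6881 in Cdk8-KO, 1894, 1003 and 869 in Cdk19-KO, and 2949, 8393 and 3385 in Double-KO. Only Cdk19-KO did not overlap with WT, and Double-KO replicate 2 stood far above the other Double-KO libraries. None of the 3 comparisons with WT called Clca1 by edgeR, with log2 fold changes of 0.85 (SE 0.42) in Cdk8-KO, 0.63 (SE 0.42) in Double-KO and -1.34 (SE 0.43) in Cdk19-KO. Without Double-KO replicate 2 the change in Double-KO was -0.01. Fcgbp encodes a large mucin-like protein linked to the MUC2 network. It had 18187, 19513 and 27713 normalised counts in WT, 23083, 25267 and 26385 in Cdk8-KO, 23982, 13023 and 11561 in Cdk19-KO, and 18757, 29555 and 19440 in Double-KO. Every group overlapped with WT, and the log2 fold change of Fcgbp in Double-KO was 0.05 (SE 0.27), the smallest of the 10.

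Of the trefoil factors, Tff3 had 6813, 6755 and 7261 normalised counts in WT, 10284, 9298 and 12151 in Cdk8-KO, 8112, 5675 and 4500 in Cdk19-KO, and 7878, 13755 and 10399 in Double-KO. Both Cdk8-KO and Double-KO lay above WT without overlap, but neither passed edgeR's test (log2 fold changes of 0.61 and 0.62, SE 0.22 each; adjusted p = 0.131 and 0.0692), and DESeq2 called the second (adjusted p = 0.0221), as did edgeR without Double-KO replicate 1 (0.0281). Tff1, the gastric-type trefoil factor, was near the floor: raw counts were 2, 7 and 2 in WT, 18, 10 and 60 in Cdk8-KO, 2, 2 and 3 in Cdk19-KO, and 37, 75 and 1 in Double-KO. Double-KO overlapped with WT through replicate 3, the library with Cdk19 counts at the WT level, and the log2 fold changes were 2.90 (SE 1.09; edgeR adjusted p = 0.147) in Cdk8-KO and 3.27 (SE 1.07; adjusted p = 0.0536) in Double-KO, or 3.85 without replicate 3 (edgeR adjusted p = 0.0067). These p-values are given as values and not as support, since Tff1 was tested only through the libraries where it was high and the last one leaves out the Double-KO library with a single read. Tff1 shares 221 exon bases with the antisense gene Gm15318, whose reads cannot be told from those of Tff1 in these unstranded libraries.

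Agr2 had 2065, 2104 and 2073 normalised counts in WT, 4067, 4172 and 3378 in Cdk8-KO, 2403, 1517 and 1408 in Cdk19-KO, and 2566, 3397 and 3049 in Double-KO. The WT libraries were nearly equal, and both Cdk8-KO and Double-KO lay above them. Agr2 rose 1.86-fold in Cdk8-KO (log2 fold change 0.90, SE 0.18; edgeR adjusted p = 0.0152), and the call was lost without WT replicate 1 (0.0721), 2 (0.0564) or 3 (0.0511). In Double-KO its log2 fold change was 0.53 (SE 0.18; edgeR adjusted p = 0.0577, DESeq2 adjusted p = 0.0168), and 7 of 8 other settings put it under the threshold, as did leaving out Double-KO replicate 1 (0.0387). Spink4, a small secreted peptide of the Kazal protease inhibitor family, had 1970, 1970 and 2089 normalised counts in WT, 4578, 3993 and 4378 in Cdk8-KO, 2899, 961 and 755 in Cdk19-KO, and 3055, 4484 and 4111 in Double-KO. Its log2 fold changes of 1.10 (SE 0.37) in Cdk8-KO and 0.95 (SE 0.37) in Double-KO came from groups without overlap and did not pass (edgeR adjusted p = 0.113 and 0.0993). Cdk19-KO replicate 1 held far more Spink4 counts than the other libraries of its group.

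The transcription factors had the smallest changes among the genes called in Cdk8-KO. Spdef had 323, 354 and 333 normalised counts in WT, 587, 554 and 492 in Cdk8-KO, 438, 284 and 284 in Cdk19-KO, and 328, 456 and 482 in Double-KO. Creb3l1 had 610, 619 and 664 in WT, 1033, 990 and 826 in Cdk8-KO, 880, 563 and 607 in Cdk19-KO, and 706, 772 and 773 in Double-KO. Both rose in Cdk8-KO, Spdef 1.62-fold (log2 fold change 0.69, SE 0.18; edgeR adjusted p = 0.0451) and Creb3l1 1.50-fold (0.59, SE 0.15; adjusted p = 0.0429). The Spdef call was lost without any one of the 6 libraries (adjusted p of 0.069 to 0.163), and the Creb3l1 call was kept only without Cdk8-KO replicate 3 (0.0471). In Double-KO the log2 fold changes were 0.33 (SE 0.18; edgeR adjusted p = 0.232) for Spdef and 0.25 (SE 0.15; adjusted p = 0.27) for Creb3l1.

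With both doubted libraries left out, an alternative added after the values were seen, Muc2 (log2 fold change 1.14), Zg16 (1.35), Agr2 (0.52) and Spink4 (0.90) were called higher in Double-KO against WT, beside 3008 of 15821 genes called. Tff1 (3.85) was also called, but it is tested only because it is high in the groups with deleted Cdk8. In Cdk19-KO against WT, 3 members were then called lower, Muc2 (-0.81; edgeR adjusted p = 0.0055), Zg16 (-1.73; adjusted p = 0.0249) and Spink4 (-1.21; adjusted p = 0.0035), beside 666 genes called, and the other 7 changes were also below 0. Cdk19-KO replicate 1 held the highest value of its group for 9 of the 10 members, and leaving out this library alone gave the same 3 calls (edgeR adjusted p = 0.0315, 0.0289 and 0.0032). In Cdk8-KO against WT, 6 members were called under this setting, beside 1309 genes called. Tff1 (2.88) is among the 6, and its call is given as a value and not as support.

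Comparing the Double-KO with each single knockout, no member was called by edgeR against Cdk8-KO, where 0.0256% of all genes were called, 2 members passed an unadjusted p of 0.05 (15.5% of all genes) and DESeq2 called 0 (2.64%). The log2 fold change there was 0.37 (SE 0.16; edgeR adjusted p = 0.292) for Muc2, and Spdef and Creb3l1 lay lower in Double-KO without overlap (-0.37 and -0.34; adjusted p = 0.345 and 0.295), beside 8.04% of all genes lower without overlap. Without both doubted libraries 0 members were called there, beside 22 of 15821 genes. Against Cdk19-KO, 7 members rose, beside 25.3% of all genes called and 14.4% called higher: Muc2 (log2 fold change 2.07, SE 0.17), Zg16 (2.82, SE 0.32), Clca1 (1.97, SE 0.43), Spink4 (1.34, SE 0.38), Tff3 (0.81, SE 0.22), Agr2 (0.76, SE 0.18) and Tff1 (3.95, SE 1.15). Of these, Tff1 had to differ to be tested, with at most 3 reads in each Cdk19-KO library, and its call is given as a value and not as support. Muc2, Zg16, Clca1 and Agr2 kept this call without any one library, whereas Tff3, Spink4 and Tff1 lost it without Cdk19-KO replicate 2 or 3 or Double-KO replicate 2 (adjusted p up to 0.08, 0.0881 and 0.103), and Tff1 also without Cdk19-KO replicate 1 (0.061). Without both doubted libraries, 9 members were called, Fcgbp (0.96) and Spdef (0.45) added, beside 4504 of 15821 genes. The interaction term, which asks whether the effect of Cdk8 deletion differs with the Cdk19 genotype, was called for 0 members by edgeR (0.0256% of all genes called; 2 members at an unadjusted p of 0.05, beside 14.5% of all genes) and for 2 by DESeq2 (3.18% of all genes). Those were Muc2 (log2 difference 1.09, SE 0.23; edgeR adjusted p = 0.0835, DESeq2 adjusted p = 0.0011) and Zg16 (1.84, SE 0.43; 0.0993 and 0.0015). Without both doubted libraries edgeR called Muc2 (0.98), Zg16 (2.11) and Spink4 (1.03), beside 728 of 15821 genes called. Muc2 was also called without Cdk19-KO replicate 1 (edgeR adjusted p = 0.0237) or Cdk8-KO replicate 3 (0.0331), and Spink4 without Cdk19-KO replicate 1 (0.0229).

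With Senexin B the members differed in direction. After 16 h, Clca1, Zg16, Agr2 and Spdef rose and no member fell, beside 7.75% of the 15467 genes tested called and 4.36% called higher, and 5 members lay above DMSO without overlap (12.2% of all genes). After 24 h these 4 genes and Tff3 rose and Fcgbp fell, beside 27.5% of all genes called, 14.8% higher and 12.7% lower, and 6 members lay above DMSO without overlap (23.5% of all genes) and 2 below (22.1%). Muc2 was not called at either time. The median log2 fold change of the 10 genes was 0.13 at 16 h and 0.37 at 24 h, against medians over all genes of -0.01 and 0.00. Without Tff1, which had few reads, the medians were 0.18 and 0.27. In a fit with the replicate number as a block, in which 15784 genes passed the filter, 2 more members were called at each time, Fcgbp and Spink4 lower at 16 h, and Creb3l1 higher and Spink4 lower at 24 h. The calls over all genes rose as well under the block, to 2288 at 16 h and 5743 at 24 h, from 1198 and 4252.

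**Figure D3:**
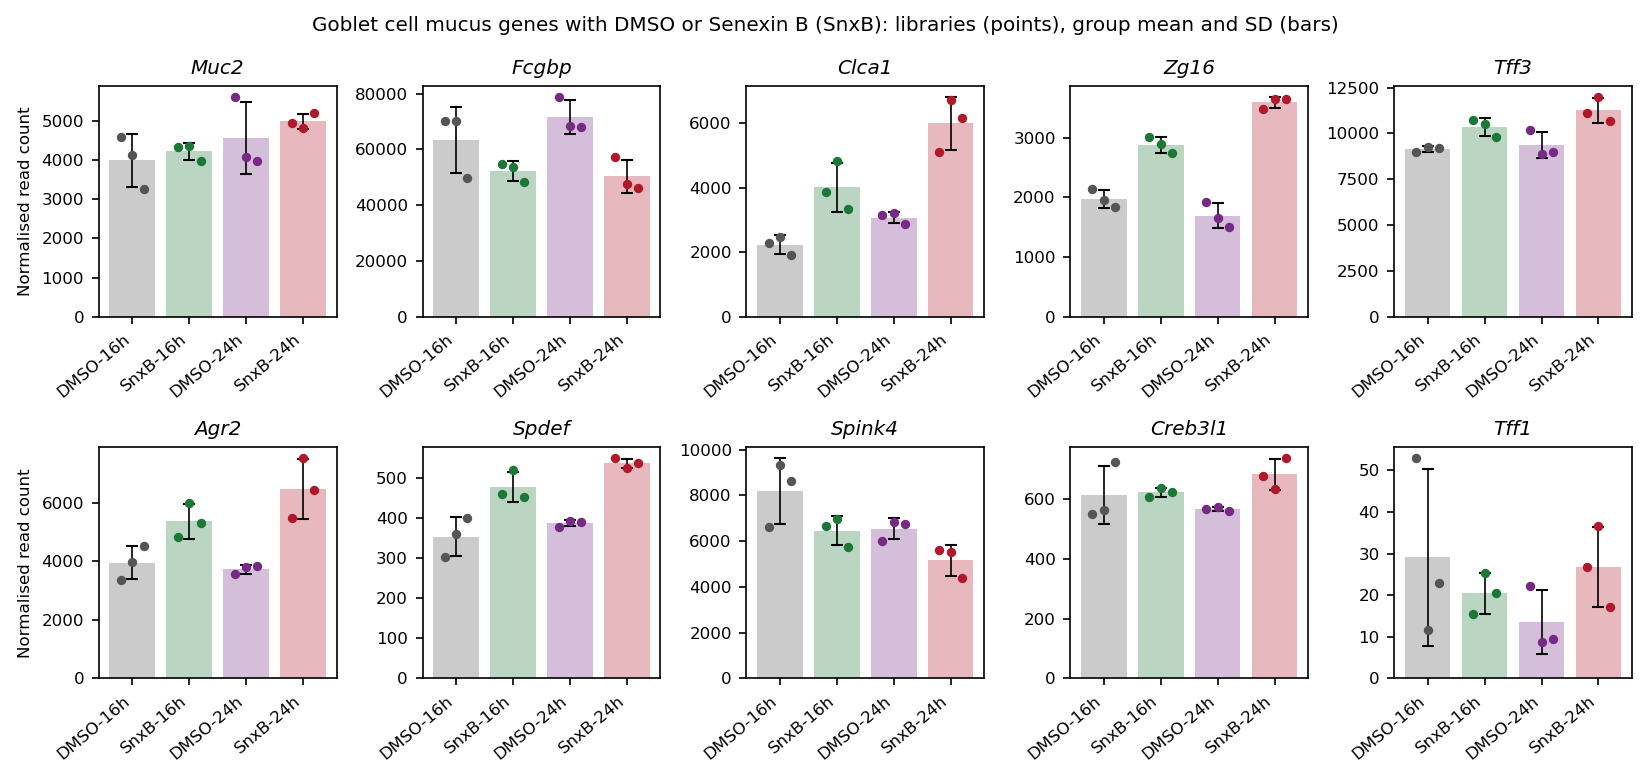
Normalised read counts of the 10 genes in WT organoids with DMSO or Senexin B (SnxB) for 16 h or 24 h, one panel a gene; points are the 3 libraries of each group, bars the group mean and error bars the SD. Clca1, Zg16 and Agr2 lie higher with Senexin B at both times without overlap, Fcgbp lies lower at 24 h (46098 to 57194 against 67934 to 78811), and the Muc2 groups overlap.

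Among the gel genes, Muc2 had 4594, 4130 and 3262 normalised counts in DMSO-16h, 4319, 4359 and 3974 in SnxB-16h, 5601, 4081 and 3975 in DMSO-24h, and 4951, 4807 and 5195 in SnxB-24h. The groups overlapped at both times, and the log2 fold changes were 0.08 (SE 0.13; edgeR adjusted p = 0.784) and 0.13 (SE 0.13; adjusted p = 0.48). Clca1 had 2303, 2485 and 1907 in DMSO-16h, 3861, 4841 and 3360 in SnxB-16h, 3145, 3213 and 2881 in DMSO-24h, and 5120, 6723 and 6168 in SnxB-24h. It rose 1.80-fold at 16 h (log2 fold change 0.85, SE 0.13; edgeR adjusted p = 0.0013) and 1.95-fold at 24 h (0.96, SE 0.13; adjusted p = 0.0002). Clca1 was also the only member called between the DMSO groups, higher at 24 h than at 16 h (log2 fold change 0.46, SE 0.13; edgeR adjusted p = 0.0373; 11.1% of all genes called, 4.52% higher). That call was lost without DMSO-16h replicate 3 (0.161) or without DMSO-24h replicate 1 (0.11), 2 (0.0976) or 3 (0.0572).

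Zg16 had 2136, 1952 and 1843 normalised counts in DMSO-16h, 3013, 2889 and 2750 in SnxB-16h, 1926, 1664 and 1504 in DMSO-24h, and 3489, 3642 and 3646 in SnxB-24h. The Senexin B libraries lay above the DMSO libraries at both times, and the distance was wider at 24 h. Zg16 rose 1.46-fold at 16 h (log2 fold change 0.54, SE 0.09; edgeR adjusted p = 0.0013) and 2.12-fold at 24 h (1.08, SE 0.09; adjusted p = 3.62e-06). The difference between these effects, 0.54 on the log2 scale (SE 0.12), was not called (edgeR adjusted p = 0.232; 0% of all genes called by edgeR and 12.9% at an unadjusted p of 0.05), but it was called with the replicate block (adjusted p = 0.042; 60 of 15784 genes called) and by DESeq2 (adjusted p = 0.0161). It was the only member called in that interaction by either, and DESeq2 called 0.472% of all genes. Fcgbp went the other way. It had 70279, 70232 and 49940 in DMSO-16h, 54942, 53799 and 48374 in SnxB-16h, 78811, 68544 and 67934 in DMSO-24h, and 57194, 47706 and 46098 in SnxB-24h. Fcgbp fell 0.51 on the log2 scale at 24 h (log2 fold change -0.51, SE 0.12; edgeR adjusted p = 0.0075), and its change at 16 h, with groups that overlapped, was -0.28 (SE 0.12; edgeR adjusted p = 0.194, 0.0382 with the replicate block and 0.0241 without DMSO-16h replicate 3).

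Agr2 had 3381, 3979 and 4519 normalised counts in DMSO-16h, 4825, 6017 and 5300 in SnxB-16h, 3564, 3802 and 3834 in DMSO-24h, and 5477, 7523 and 6448 in SnxB-24h. It rose 1.36-fold at 16 h (log2 fold change 0.44, SE 0.12; edgeR adjusted p = 0.0368) and 1.74-fold at 24 h (0.80, SE 0.12; adjusted p = 0.00039). The call at 16 h was lost without DMSO-16h replicate 1 (0.079) or 2 (0.0922) or SnxB-16h replicate 2 (0.141) or 3 (0.0908), and it was kept with the replicate block (0.0012). Spdef had 303, 360 and 399 in DMSO-16h, 459, 520 and 453 in SnxB-16h, 379, 394 and 391 in DMSO-24h, and 549, 526 and 537 in SnxB-24h. No group with Senexin B overlapped with its DMSO group, and Spdef rose 1.35-fold at 16 h (log2 fold change 0.43, SE 0.10; edgeR adjusted p = 0.0159, and 0.0792 without SnxB-16h replicate 2) and 1.39-fold at 24 h (0.47, SE 0.10; adjusted p = 0.0033).

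Tff3 had 8896 to 10166 normalised counts in the 6 DMSO libraries and 9807 to 11984 in the 6 Senexin B libraries. It rose 1.20-fold at 24 h (log2 fold change 0.27, SE 0.07; edgeR adjusted p = 0.0114), a call that was lost without DMSO-24h replicate 2 (0.052) or SnxB-24h replicate 2 (0.0634), and its change at 16 h was 0.18 (SE 0.07; adjusted p = 0.139). Spink4 had 6011, 6848 and 6765 in DMSO-24h and 5606, 5524 and 4380 in SnxB-24h, without overlap. Its log2 fold change of -0.34 at 24 h (SE 0.12) was just outside the threshold (edgeR adjusted p = 0.0562) and was called by DESeq2 (0.0357) and with the replicate block (0.0177). At 16 h it was also -0.34 (SE 0.12; edgeR adjusted p = 0.11, 0.0375 with the block and 0.011 without DMSO-16h replicate 1), with overlapping groups. Creb3l1 had 568, 576 and 561 in DMSO-24h and 678, 635 and 737 in SnxB-24h, a log2 fold change of 0.27 (SE 0.10; edgeR adjusted p = 0.0601, and 0.0245 with the block), and its change at 16 h was 0.02 (SE 0.10). Tff1 had raw counts of 9 to 52 in the 12 libraries, and neither time passed the test.

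**Figure D4:**
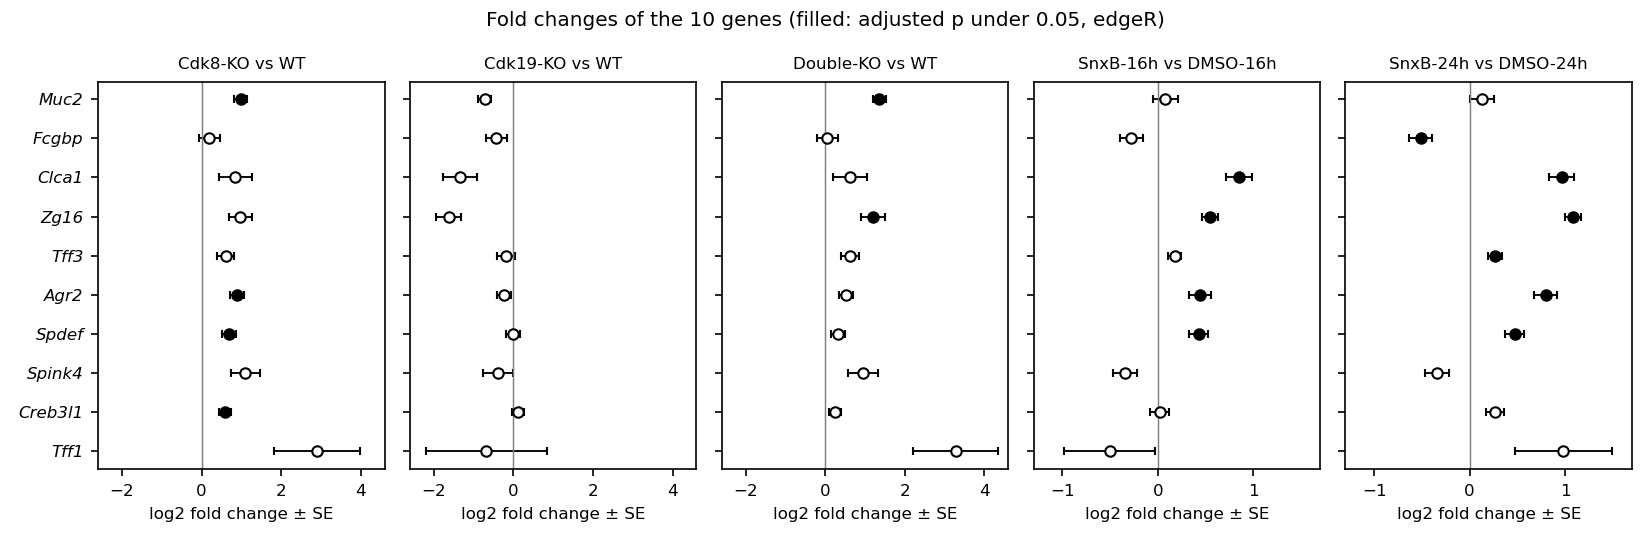
Log2 fold change of the 10 genes with its SE in the 3 genotype comparisons with WT and the 2 comparisons of Senexin B with DMSO; filled points passed edgeR's test at an adjusted p of 0.05, and the axis range differs between the genotype and the inhibitor panels. In Double-KO the 9 points other than Tff1 lie above 0, beside 48.9% of all genes. Tff1 passed the filter there only through groups where it was high. Muc2 lies at 1.36 in Double-KO, whereas with Senexin B for 24 h Muc2 lies at 0.13 and Fcgbp at -0.51.

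Set side by side, Zg16 was called higher both in Double-KO against WT (log2 fold change 1.20) and with Senexin B for 24 h (1.08). Muc2 was called higher in Double-KO (1.36) and not with Senexin B for 24 h (0.13), and Clca1, Agr2 and Spdef were called higher with Senexin B for 24 h (0.96, 0.80 and 0.47) and not in Double-KO (0.63, 0.53 and 0.33). Whether these effects differ between the experiments was not tested, because their libraries were made and normalised apart. The correlation with Muc2 across libraries, on log2(CPM + 1) and with the group differences included, is given as a description. Over the 12 genotype libraries the other 9 members had r of 0.56 (Creb3l1) to 0.91 (Zg16), where 21.1% and 1.64% of all genes had a higher r. Over the 12 inhibitor libraries r was -0.69 (Spink4) to 0.61 (Clca1), with 97.2% and 7.14% of all genes higher. The genes outside the list with the pattern most like that of Muc2 were Map2k4 (0.99), C130083M11Rik (0.98) and Acot9 (0.98) in the genotype libraries and Ipmk (0.93), 2010106E10Rik (0.92) and Map3k6 (0.91) in the inhibitor libraries.

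Of 7 other transcription factors of the goblet lineage tested (Atoh1, Gfi1, Klf4, Foxa1, Foxa3, Xbp1 and Creb3l4), none was called in Cdk8-KO by edgeR or DESeq2, and Foxa3 alone was called in Double-KO, lower than in WT (log2 fold change -0.48, SE 0.12; edgeR adjusted p = 0.0226). With Senexin B, Gfi1 (0.72, SE 0.20) rose and Xbp1 (-0.21, SE 0.055), a regulator of secretory capacity, fell at 16 h, and Klf4 (-0.44, SE 0.08), a factor of terminal goblet differentiation, fell at 24 h. Of 23 other goblet cell genes tested, 4 were called higher and 0 lower in Cdk8-KO, 6 higher and 1 lower in Double-KO, 5 higher and 1 lower at 16 h and 5 higher and 3 lower at 24 h of Senexin B. Over all genes, edgeR called 2.79% higher and 2.36% lower in Cdk8-KO, 9.41% and 7.9% in Double-KO, 4.36% and 3.39% at 16 h, and 14.8% and 12.7% at 24 h, so the 8 of 23 called at 24 h stand near the 27.5% of all genes. Retnlb, the goblet cell cytokine of infection, was at 0 in all 24 libraries.

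Among these other goblet genes, the 4 largest called changes in Double-KO were Ang4 (log2 fold change 1.55, SE 0.27), an antimicrobial ribonuclease also made by Paneth cells, Rep15 (-1.24, SE 0.19), Lrrc26 (1.01, SE 0.20) and Tspan13 (0.87, SE 0.11). With Senexin B for 24 h they were Ang4 (-0.95, SE 0.16), Bace2 (0.84, SE 0.09), Pdia5 (0.80, SE 0.10), a disulfide isomerase, and Ern2 (-0.78, SE 0.21), an endoplasmic reticulum stress sensor of mucous cells. At 16 h they were Bcas1 (0.72, SE 0.09), Atp2c2 (-0.56, SE 0.11), Lrrc26 (0.54, SE 0.11) and Bace2 (0.46, SE 0.10).

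The other gel-forming mucins Muc5ac, Muc5b, Muc6 and Muc19, which belong to stomach, airway and glands, had at most 14.4 normalised counts in any library and were not tested. Of 10 tested paralogs of the members, 5 were called higher in Double-KO, beside 9.41% of all genes, the 4 largest being Clca4b (log2 fold change 2.18, SE 0.31), Spink1 (1.66, SE 0.24), Clca3a1 (1.64, SE 0.41) and Agr3 (1.37, SE 0.31). With Senexin B for 24 h, Tff2 (1.15, SE 0.21) rose and Clca4a (-1.69, SE 0.29), Clca4b (-0.78, SE 0.14) and Clca3a2 (-0.66, SE 0.17) fell. At 16 h Tff2 (1.00, SE 0.23) was the only one called. These Senexin B calls stand near the shares over all genes, 27.5% at 24 h and 7.75% at 16 h. Reads that fit several places are not counted on a gene in these counts, so Clca genes with similar copies can lose reads. How many were lost was not tested.

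Markers of other epithelial cell types moved in the same comparisons, and their part in the results above was not tested. Over all genes, edgeR called 2.79% higher and 2.36% lower in Cdk8-KO, and 9.41% and 7.9% in Double-KO. With Senexin B these shares were 4.36% and 3.39% at 16 h, and 14.8% and 12.7% at 24 h. All 8 Paneth cell markers were called higher in Cdk8-KO (median log2 fold change 1.60, with Lyz1 at 2.01, SE 0.22) and 7 of 8 in Double-KO (median 1.25, Lyz1 at 2.13, SE 0.22), and their summed normalised count was 19436 to 25679 in WT, 59463 to 79353 in Cdk8-KO, 20889 to 25207 in Cdk19-KO and 38236 to 78236 in Double-KO. With Senexin B for 24 h, 5 of 8 were called lower (median -0.72, Itln1 at -1.19, SE 0.14), and their sum was 36282 to 49371 against 79510 to 85208 with DMSO. At 16 h, 2 of the 8 were called lower and their sum was 42880 to 55691 against 56189 to 80709. Among 9 enterocyte markers, 5 were called higher in Double-KO (Lct 1.61, Apoa4 1.59, Anpep 1.49 and Fabp2 1.18), with sums of 199413 to 274739 against 116284 to 125464 in WT. The enterocyte sum was 156450 to 167374 in Cdk8-KO and 81296 to 110363 in Cdk19-KO, neither overlapping with WT, and with Senexin B 2 of the 9 markers were called higher and 1 lower at 16 h (Lct 2.30, Anpep 0.81 and Sis -0.73) and 4 higher and 1 lower at 24 h (Lct 3.64, Sis -0.92, Anpep 0.86 and Apoa1 0.51 the largest). Stem cell markers were called lower for 4 of 5 genes in Double-KO (Lgr5 -1.23, SE 0.15), with sums of 26611 to 29542 against 37174 to 42335 in WT and 49437 to 77987 in Cdk19-KO, and Lgr5 was also called lower in Cdk8-KO (-0.86, SE 0.15) and at 16 h (-0.47, SE 0.12) and 24 h (-0.97, SE 0.12) of Senexin B. In Double-KO the tuft cell markers Pou2f3 (-1.66, SE 0.32) and Dclk1 (-1.16, SE 0.34) and 3 of 6 markers of cycling cells were called lower. With Senexin B for 24 h, 3 of 5 tuft cell markers were called higher (Avil 0.90, Dclk1 0.46 and Pou2f3 0.40), with sums of 919 to 1034 against 672 to 759. In that comparison 2 of 6 markers of cycling cells were called higher (Cdk1 0.32 and Pcna 0.28), near the 27.5% of all genes called. Of 6 enteroendocrine markers, Cck and Chga were called higher and Neurog3 lower at 16 h (0.68, 0.52 and -0.37) and at 24 h (0.90, 0.66 and -0.42). No Paneth or stem cell marker was at 0 in any group, and the 8 immune and stromal markers summed to at most 107 normalised counts in any library, with 1 to 4 of them at 0 in a group. Their mean sum was 28.1 in WT, 56.4 in Cdk8-KO, 23.1 in Cdk19-KO and 68.6 in Double-KO, where Acta2 was called higher (3.44, SE 1.03; edgeR adjusted p = 0.0384).

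**Figure D5:**
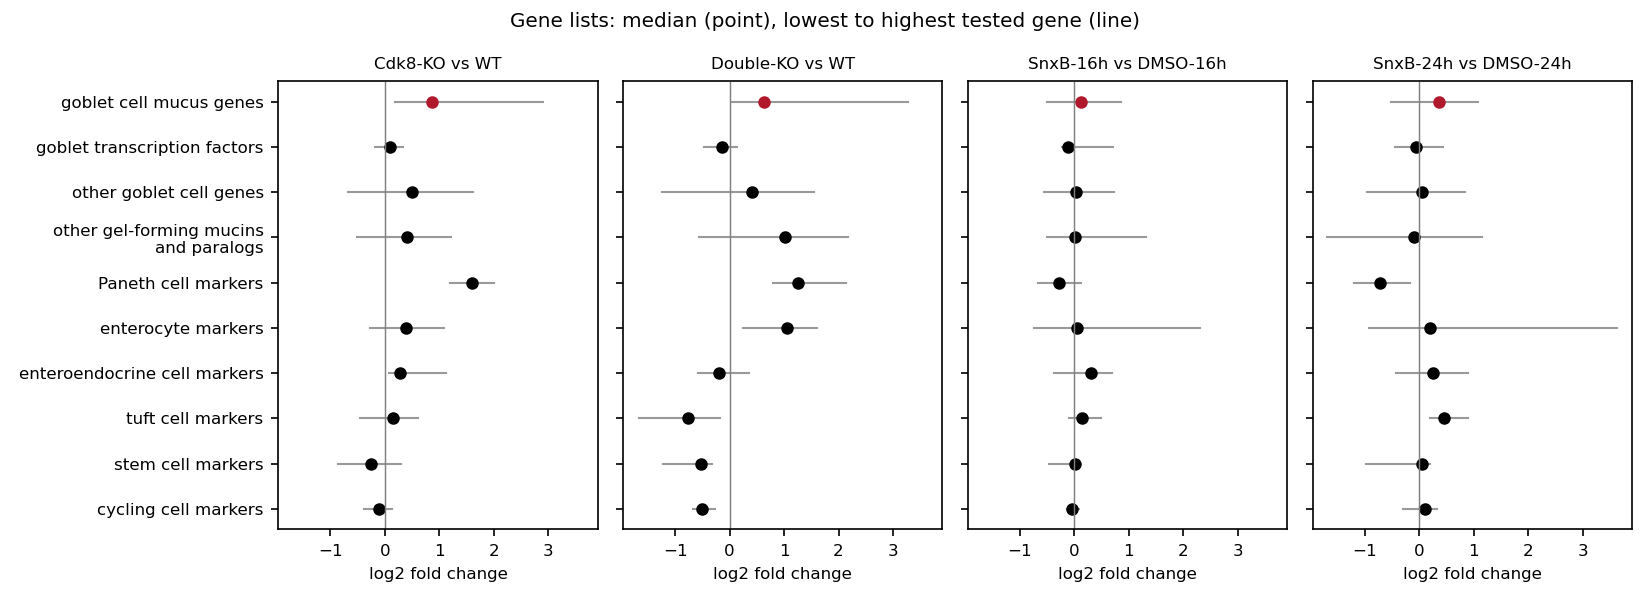
Log2 fold changes of 10 gene lists in 4 comparisons, as the median (points, the 10 mucus genes in red) and the lowest to the highest tested gene (lines). The Paneth cell markers have medians of 1.60 in Cdk8-KO, 1.25 in Double-KO and -0.72 with Senexin B for 24 h. The 10 mucus genes have medians of 0.87, 0.62 and 0.37, and without Tff1 these are 0.85, 0.62 and 0.27.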

How the data were processed

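The authors aligned single-end reads of 50 bases to GRCm38.p6 with STAR 2.6.0c, as the submitters' processing notes name it, and counted them over the genes of Ensembl 93. Raw counts were deposited, in 1 unstranded column and 2 strand columns, of which the second strand column was used. It holds 49.6 to 49.7% of the stranded reads of genotype libraries and 87.9 to 90.5% of those of inhibitor libraries. Reads not counted on a gene made up 63.1 to 65.2% and 21.5 to 25.1% of all reads, or 30.2 to 33.9% and 20.3 to 21.9% in the unstranded column.

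Counts were tested with edgeR 4.0.16 in R 4.3.3 (TMM, filterByExpr, quasi-likelihood test, adjusted p under 0.05) in 1 model of 12 libraries per experiment, and DESeq2 1.42.0, other filters, scalings, columns and sample sets were alternatives. The SE is the log2 fold change divided by the square root of F. Normalised counts are counts scaled to the geometric mean effective library size of the experiment, and TPM used exon lengths of GENCODE vM21. The members and lists were chosen with earlier results of these data known. From the other lists, at most 4 called genes with the largest changes in Double-KO against WT or with Senexin B were named.

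Libraries with the same replicate number deviated together in the Senexin B comparisons (r over genes of 0.303, 0.101 and 0.11 at 16 h and 0.377, 0.137 and 0.187 at 24 h, all above the limit of 0.1 set for pairing), although libraries of different numbers reached 0.154 and 0.147, and not in the genotype experiment, where libraries of different numbers reached 0.452 and number 3 reached 0.219 between Double-KO and Cdk8-KO. Between the DMSO groups numbers 1 and 3 did (0.366 and 0.284) and number 2 did not (-0.05). Those groups differ in time, so they cannot decide whether libraries of the same time are paired. The main test treated no libraries as paired, and fits with the replicate number as a block are given as alternatives. The labels give a number no shared origin. The sources used here do not say that triplicates came from separate animals, so p-values measure the spread between these libraries.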

Additional observations from a re-analysis of the deposited data

How the results depend on the processing

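Leaving out 1 library at a time gave 0 to 3 called members in Cdk19-KO against WT (0 in the main test), 1 to 3 in Cdk8-KO (4), 1 to 4 in Double-KO against WT (2), 4 to 9 against Cdk19-KO (7), 0 to 2 in the genotype interaction (0), 2 to 5 with Senexin B for 16 h (4), 5 to 6 for 24 h (6) and 0 to 2 between the DMSO groups (1). In Cdk8-KO, 1 was left without WT replicate 1 or 2. Without a filter on low counts the counts were 3 in Cdk19-KO, 9 in Cdk8-KO, 6 in Double-KO, 2 in the genotype interaction, 1 in the interaction with time and 3 between the DMSO groups. Over all genes, the calls were 479, 1269, 2894 and 566 of 29805 and 121 and 1862 of 28413, in that order. DESeq2 gave 2 in Cdk19-KO, 5 in Double-KO, 2 in the genotype interaction and 1 in the interaction with time. Over all genes it called 313, 3239, 496 and 73. The unstranded column gave 4 in Double-KO, beside 2907 of 15847 genes called. Fitting only the groups compared gave 4 against Cdk19-KO and 2 with Senexin B for 16 h, beside 2867 and 725 genes called. Both libraries with Cdk19 counts at the WT level were also left out, a choice made after seeing the data. That gave 3 in Cdk19-KO, 5 in Double-KO (Tff1 among them) and 3 in the genotype interaction. Over all 15821 genes, 666, 3008 and 728 were called. The counts in this paragraph include Tff1 wherever it was called. The cause of these shifts was not tested.

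With the replicate block, 6 members were called for 16 h and 8 for 24 h of Senexin B. The interaction with time gave 1 and the DMSO groups gave 3. Over all 15784 genes, 2288, 5743, 60 and 3266 were called, in that order. In the genotype experiment, where the numbers do not pair, Spdef in Cdk8-KO (edgeR adjusted p = 0.0667) and Tff1 against Cdk19-KO (0.0508) left the threshold. A block within each time, also chosen after seeing the data, gave 5 for 16 h and 8 for 24 h. Over all 15467 genes it called 2338 and 5872.

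Reversals of direction came only from members that the main test did not call. Spdef in Cdk19-KO moved from -0.0058 to 0.0037 (DESeq2 and its size factors), 0.0034 (no filter), 0.0116 (only the groups compared) and 0.00601 (replicate block). Spink4 in the interaction with time moved to -0.00848 (10 counts in every library), -0.00499 (DESeq2 size factors) and -0.0050 (DESeq2). Tff1 in Cdk19-KO moved to 0.199 (unstranded column). Without both doubted libraries, Agr2 in the genotype interaction moved to 0.131 and Creb3l1 in Cdk19-KO to -0.0962.

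With 1 library left out, log2 fold changes that crossed 0 are given by their range. Between the DMSO groups, Agr2 ran from -0.186 to 0.0207, Creb3l1 -0.182 to 0.0267 and Tff3 -0.0311 to 0.0674. In the genotype interaction, Agr2 ran from -0.284 to 0.136, Spink4 -0.0971 to 1.07 and Tff3 -0.0241 to 0.455. In Double-KO against Cdk8-KO, Clca1 ran from -0.86 to 0.0504, Spink4 -0.269 to 0.00963, Tff1 -0.581 to 1.41, Tff3 -0.211 to 0.206 and Zg16 -0.111 to 0.38. In Double-KO against WT, Clca1 ran from -0.00677 to 0.991 and Fcgbp -0.191 to 0.272. In Cdk19-KO, Creb3l1 ran from -0.0961 to 0.241, Spdef -0.231 to 0.112, Tff1 -0.974 to 0.179 and Tff3 -0.435 to 0.000994. With Senexin B for 16 h, Creb3l1 ran from -0.0494 to 0.159, Muc2 -0.0494 to 0.19 and Tff1 -0.884 to 0.24. In the interaction with time, Muc2 ran from -0.0592 to 0.229, Spdef -0.0539 to 0.141 and Spink4 -0.0999 to 0.139. Among single members, the other settings left 661 values on the same side of the threshold, 63 gained a call, 7 lost it and 11 reversed; with 1 library left out these were 625, 17, 38 and 40. Low counts limit Tff1, and 3 libraries per group limit every test.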
